A study of Mus musculus with 12 samples.

Results

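Transcripts for the nuclear-encoded subunits of the mitochondrial respiratory chain were measured in hippocampus from mice with recurrent seizures, with and without a systemic inflammatory challenge. The set holds every array gene name that starts with Nduf, Sdh followed by a, b, c or d, Uqcr, Cox4 to Cox8 or Atp5, with a probe that the scanner software called well above background in a whole group, meaning each of its 3 arrays. Of 91 such names on the array 89 passed, out of 18193 genes that passed in all. Cox4i2 and Cox8c, both tissue-restricted forms of complex IV subunits, were on the array and did not pass. The 89 are 80 subunits, 6 assembly factors caught by the prefix (Ndufaf1 to Ndufaf4, Sdhaf1 and Sdhaf2) and 3 further names that are not counted as subunits here (Cox4nb, Atp5s and Atp5sl). Of the 89, 88 were well above background on all 12 arrays.

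All 12 mice were male C57BL/6N, aged 12 weeks per the labels, and had received 50 nl of 20 mM kainate (KA), a glutamate receptor agonist, in the left dorsal hippocampus. After 3 weeks, with recurrent seizures, they received 1 intraperitoneal dose of either saline or lipopolysaccharide (LPS), an endotoxin of Gram-negative bacteria (here of Salmonella enterica, serotype abortus equi), at 100 µg/kg. The 4 groups of 3 mice were saline 4 h, LPS 4 h, saline 24 h and LPS 24 h after that injection, and no group without kainate is part of the series. The labels give whole hippocampus and do not state its side. Markers of neurons (10 of 10), astrocytes (8 of 8) and granule and pyramidal cells (8 of 8) were measured, as were markers of the neighbouring thalamus (7 of 7), choroid plexus and ependyma (6 of 6) and pituitary (4 of 4). In whole tissue, fewer cells of a type and less RNA per cell cannot be told apart.

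The respiratory chain sits in the inner mitochondrial membrane. Complex I oxidises NADH and complex II succinate, both pass electrons through ubiquinone to complex III, cytochrome c carries them to complex IV, which reduces oxygen, and the resulting proton gradient drives ATP synthase, complex V. Neurons draw most of their ATP from this route. A few core subunits are encoded in mitochondrial DNA and the others in the nucleus, and several complex IV subunits exist as a widely expressed form and a form best known from heart and skeletal muscle or testis.

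Levels are log2 processed intensities minus the 75th percentile of the array, and differences are on that log2 scale, each with its standard error (SE) from 1 limma fit of all 12 arrays. The call threshold was 0.05 for p adjusted by Benjamini-Hochberg across the 18193 genes, and every adjusted p below is from that fit unless another setting is named. Levels of different genes come from different probes and are not compared. Within a group the SD of the 89 genes had a median of 0.03 to 0.06, small enough for differences near 0.1 to be called. That the arrays of a group come from separate mice rests on the labels.

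The saline 4 h arrays stood apart from the other 9, which touches every comparison that uses them. Their 75th percentile was an intensity of 371.6 to 396.2, against 668.7 to 954.8 on the others. They had 54.6% to 55.7% of spots well above background, against 58.9% to 71.7%. Spike-in controls, relative to the 75th percentile, were at 0.134 to 0.21 on them, between -0.352 and -0.241 in LPS 4 h, between -0.53 and -0.462 in saline 24 h and between -0.314 and 0.055 in LPS 24 h. Each of the 6 slides carried 1 saline and 1 LPS array of 1 time. Scan day and time after injection cannot be told apart. Within the 3 slides of 4 h, LPS was below saline for 84, 85 and 84 of the 89 genes, and within those of 24 h for 57, 58 and 50. The median of the 89 on the 4 h slides was -0.53, -0.61 and -0.55, against -0.13, -0.18 and -0.12 over all genes. On the 24 h slides it was -0.06, -0.04 and -0.01, against 0.00, 0.00 and 0.02. The share of all genes below saline within a slide was not counted.

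The first comparison asks how these transcripts stood 4 h after LPS. Against saline 4 h, 83 of the 89 were lower and 1 was higher, where 44.5% of all genes tested were lower and 29.3% higher. The median difference of the 89 was -0.57, against -0.15 over all genes. Every complex took part: lower were 7 of 7 core and 28 of 29 accessory subunits of complex I, 4 of 4 of complex II, 8 of 8 of complex III, 15 of 17 of complex IV and 15 of 15 of complex V. Their medians were close to each other, at -0.46, -0.64, -0.41, -0.68, -0.57 and -0.62 in that order.

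The direction turned with the control. Against the saline arrays of 24 h, the same LPS 4 h arrays had 56 of the 89 higher and 11 lower, where 41.5% of all genes were higher and 31.7% lower. The median difference was then 0.22, against 0.06 over all genes. All 56 that were higher there had been lower against saline 4 h, and 9 genes were lower against both. LPS 24 h against saline 4 h had 81 lower and 6 higher, with 46.7% and 34.3% of all genes. Between the saline groups themselves, 79 were lower and 5 higher at 24 h than at 4 h (48.4% and 32.3% of all genes), with a median of -0.77 against -0.16. Saline 4 h had the highest group mean for 81 of the 89, which is 91%, against 42.7% of all genes. The order saline 4 h, LPS 4 h, saline 24 h, LPS 24 h from high to low held for 47 of the 89. Neither this order nor the overlap of calls between the controls was counted over all genes. How the saline 4 h arrays came to differ was not tested.

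**Figure D1:**
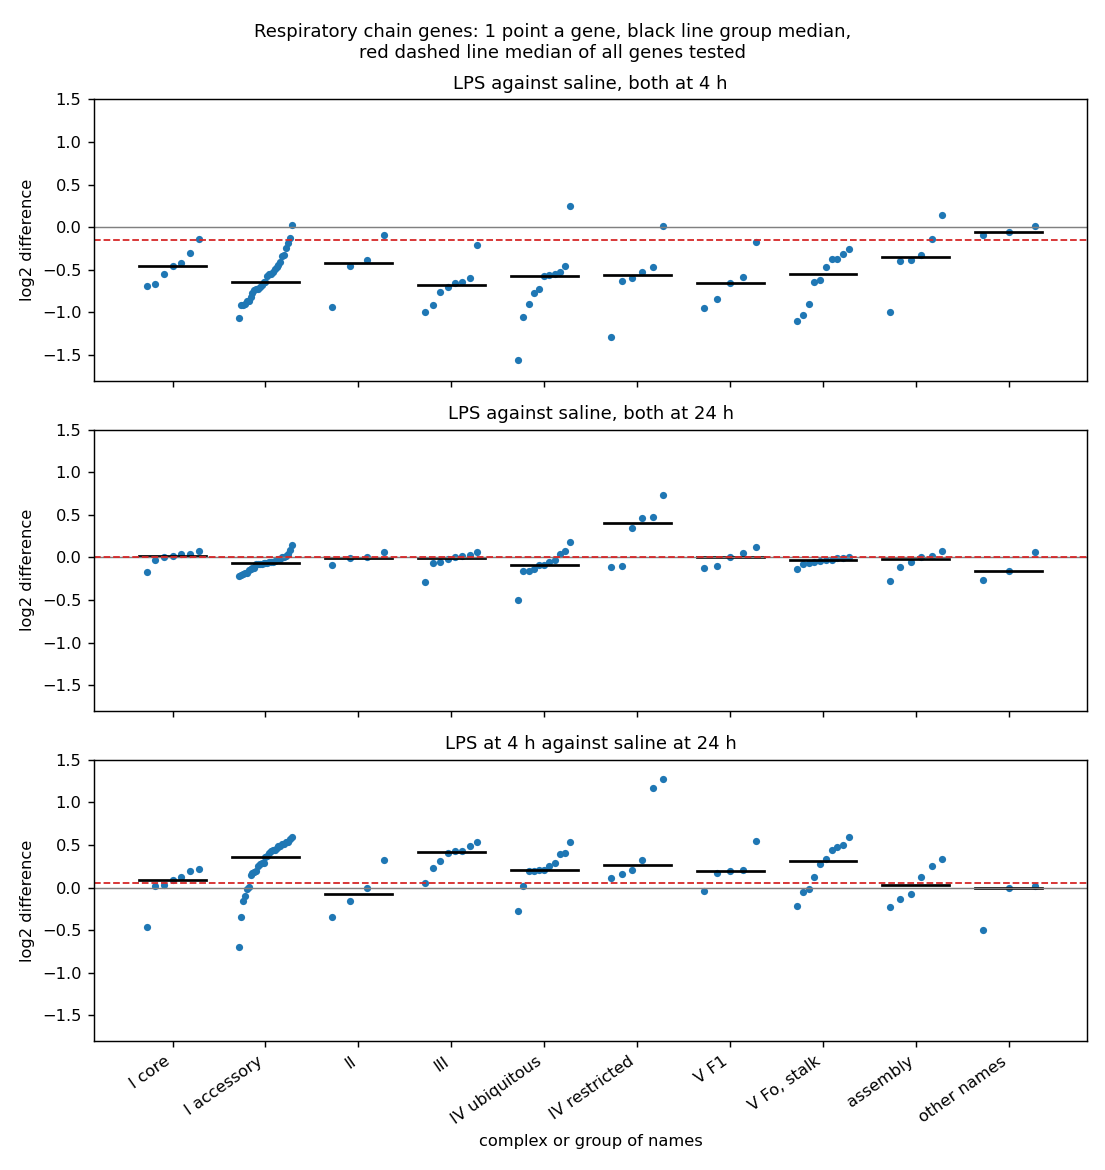
Log2 difference of each of the 89 genes (y axis) by complex or group of names (x axis), 1 point a gene, for LPS against saline at 4 h, at 24 h, and LPS at 4 h against saline at 24 h. Black lines are group medians, the grey line is 0 and the red dashed line is the median of all genes tested; the 83 genes lower in the top panel contrast with the 56 that are higher in the bottom panel.

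**Figure D2:**
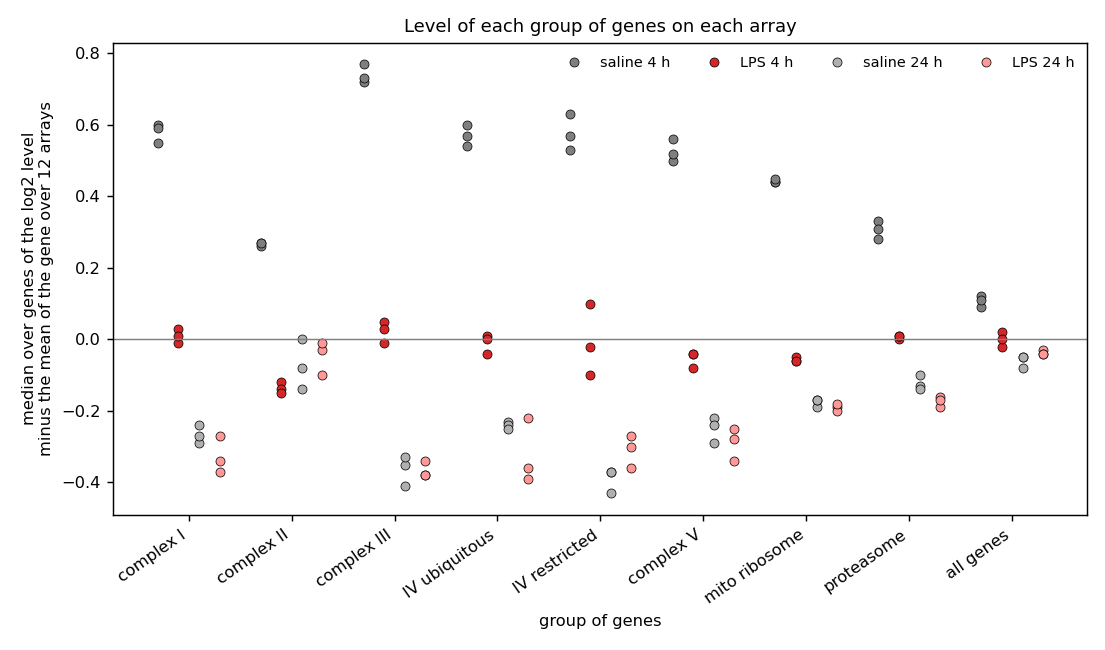
Median over the genes of a group of the log2 level minus that gene's mean over 12 arrays (y axis), for each complex, the mitochondrial ribosome, the proteasome and all genes (x axis), 1 point an array, coloured by group. The 3 saline 4 h arrays are the highest of the 12 for each group of genes shown.

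On each array the median of the 89 genes, each set against its own mean over the 12 arrays, gave the same picture. It was 0.51, 0.55 and 0.55 on the saline 4 h arrays and -0.04, 0.01 and 0 on those of LPS 4 h. It was -0.22, -0.24 and -0.25 in saline 24 h and -0.32, -0.33 and -0.25 in LPS 24 h. The saline 4 h arrays overlapped with no others, while the 24 h groups met at -0.25. Over all genes the saline 4 h arrays were at 0.09 to 0.12 and the other 9 between -0.08 and 0.02.

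The size at 4 h also depended on the scaling. With quantile normalization 49 were lower and 16 higher (39.3% and 31.7% of all genes), and the median was -0.15 against -0.07 over all genes. In the deposited matrix 46 were lower and 9 higher (37% and 28.6% of all genes), again with a median of -0.15, against -0.04. Scaling each array to its median instead gave 86 lower and 0 higher (54.2% and 21.5% of all genes). It moved the median of all genes from -0.15 to -0.32.

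Brightness moved with the result. Shares and medians of other genes here leave the respiratory chain genes out. The range with a mean level of 6 and over held 261 genes. Of the other genes there, 87.2% were lower at 4 h with a median of -0.56. The 26 respiratory chain genes among the 261 had a median of -0.68 with 26 lower. Between 4 and 6, a range of 1177 genes, 76% of the other genes were lower with a median of -0.42. The 33 respiratory chain genes of that range had a median of -0.57 with 33 lower. Under 0, a range of 9928 genes, 31.8% of the other genes were lower with a median of -0.05. The remaining 3 ranges, from 4 downward, hold 19, 6 and 5 respiratory chain genes, which is few. Against saline 24 h the sign was the opposite: the brightest respiratory chain genes had a median of 0.41, and the other genes of that range 0.35. The part that brightness has in the difference was not tested.

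**Figure D3:**
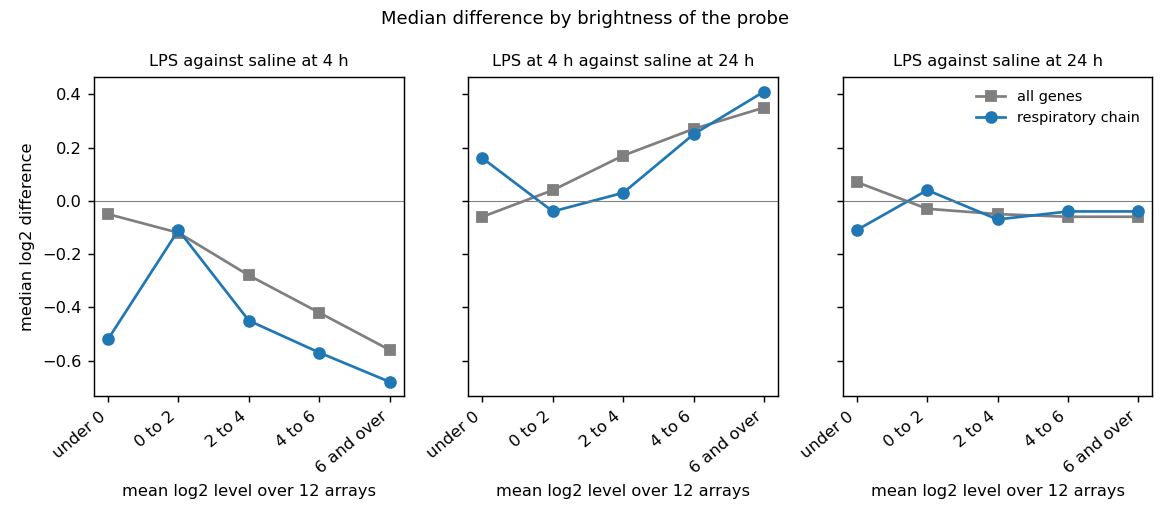
Median log2 difference (y axis) by mean log2 level over 12 arrays (x axis, 5 ranges), in 3 comparisons. Grey squares, labelled all genes, are the genes outside the respiratory chain set, and blue circles are the respiratory chain genes. From the range of 0 to 2 upward both lines fall at 4 h, to -0.56 and -0.68, and rise against saline 24 h, to 0.35 and 0.41, and at 24 h the brightest range is at -0.06 and -0.04.

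Genes of the mitochondrial ribosome and the proteasome moved mostly in the same direction at 4 h. Of 76 genes of the mitochondrial ribosome (names starting with Mrpl or Mrps), 65 were lower and 4 higher with a median of -0.49. Of 40 proteasome genes (names starting with Psma, Psmb, Psmc or Psmd) 31 were lower and 0 higher with a median of -0.32. Of all genes 44.5% were lower and 29.3% higher, with a median of -0.15. A difference between these groups and the respiratory chain was not tested.

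Promoters of these genes are known to share binding sites for nuclear respiratory factor 1 (NRF1), the ETS factor GABPA, YY1 and the oestrogen-related receptors (ERRA), which together set the level of nuclear-encoded mitochondrial genes. Exact matches were sought on both strands from 250 bases before to 50 after the start, in RefSeq promoters of GRCm38.p6, which 76 of the 89 matched by symbol. GCGCATGCG, the core of the near-palindrome bound by NRF1, was in 11% of the 82 windows of these genes and in 1.75% of all 32851 windows. AAGATGGCG (YY1) was in 11% against 1.4%, CCGGAAGT (ETS) in 6.1% against 3.89%, and TCAAGGTCA (ERRA) in 2.44% against 0.423%. No 2 matches of different motifs overlapped in these windows, and 30.3% of the 76 genes held at least 1 motif, against 7.93% of all genes. A match is a run of letters in a window and not a bound site.

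Shown are the 200 bases before the start of 3 widely expressed genes with a match in that stretch, and of 2 tissue-restricted forms of complex IV with none, with the motif in capitals (GCGCATGCG in Cox6a1, which matches on either strand 1 base apart, CCGGAAGT on the opposite strand in Atp5h, TCAAGGTCA on the opposite strand in Atp5g3). They lie 162, 39 and 52 bases before the start. The examples do not stand for their classes. Over the whole searched window, the widely expressed complex IV genes Cox6a1 and Cox8a held a match. Cox5a, Cox5b, Cox6b1, Cox7a2, Cox7b, Cox7c and Ndufa4 held none, and neither did the restricted forms and relatives Cox6b2, Cox7a1, Cox7a2l, Cox7b2 and Cox8b.
Cox6a1, chr5:115348959-115349158, minus strand: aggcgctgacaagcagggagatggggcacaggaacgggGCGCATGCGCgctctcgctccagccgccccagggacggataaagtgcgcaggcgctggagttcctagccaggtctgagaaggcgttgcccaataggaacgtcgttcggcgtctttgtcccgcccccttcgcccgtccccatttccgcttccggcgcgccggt
Atp5h, chr11:115419920-115420119, minus strand: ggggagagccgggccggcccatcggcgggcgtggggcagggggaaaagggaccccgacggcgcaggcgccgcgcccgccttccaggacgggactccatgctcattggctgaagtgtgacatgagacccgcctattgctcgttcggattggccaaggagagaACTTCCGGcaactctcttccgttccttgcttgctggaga
Atp5g3, chr2:73911327-73911526, minus strand: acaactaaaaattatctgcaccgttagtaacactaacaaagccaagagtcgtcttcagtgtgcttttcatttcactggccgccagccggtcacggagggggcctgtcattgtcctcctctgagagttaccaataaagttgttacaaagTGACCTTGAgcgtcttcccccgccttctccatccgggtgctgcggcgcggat
Cox7a1, chr7:30183971-30184170, plus strand: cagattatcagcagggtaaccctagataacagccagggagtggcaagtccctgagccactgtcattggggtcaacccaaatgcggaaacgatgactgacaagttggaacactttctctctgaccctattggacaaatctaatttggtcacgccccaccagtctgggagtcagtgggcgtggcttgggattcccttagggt
Cox8b, chr7:140900447-140900646, minus strand: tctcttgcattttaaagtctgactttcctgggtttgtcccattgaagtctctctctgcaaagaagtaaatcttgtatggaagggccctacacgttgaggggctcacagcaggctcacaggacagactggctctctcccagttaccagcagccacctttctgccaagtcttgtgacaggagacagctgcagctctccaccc

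Complex I is the entry point for NADH. Its largest subunit, the iron-sulphur protein Ndufs1, was at 5.52, 5.45 and 5.50 on the saline 4 h arrays and at 4.93, 4.93 and 4.95 on the LPS 4 h arrays. The groups did not overlap, and the difference was -0.55 (SE 0.05, adjusted p = 4.37e-06). At 24 h saline was at 4.79, 4.79 and 4.84 and LPS at 4.98, 4.81 and 4.76, which overlap (0.04, SE 0.05, adjusted p = 0.57).

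The NADH-binding subunit Ndufv1 differed by -0.30 (SE 0.03, adjusted p = 4.33e-06) at 4 h, but by 0.11 with quantile normalization, by 0.04 in the deposited matrix and by 0.02 against saline 24 h.

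Among the accessory subunits, which surround the core, Ndufa2 fell most. It stood at 6.64, 6.63 and 6.58 in saline 4 h and at 5.51, 5.55 and 5.59 in LPS 4 h, a difference of -1.07 (SE 0.05, adjusted p = 2.41e-08, 2.09-fold), and at 5.04, 5.15 and 5.05 in saline 24 h, below LPS 4 h. Ndufa10 was the 1 accessory subunit not called at 4 h, at 2.89, 2.84 and 2.93 in saline and 2.93, 2.93 and 2.91 in LPS (0.03, SE 0.03, adjusted p = 0.368). It ran against the rest between the controls, 0.73 higher in saline 24 h than in saline 4 h.

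At 24 h, 0 of the 7 core subunits and 9 of the 29 accessory subunits were called, all 9 lower, where 22.8% of all genes were lower. In a pair of them, Ndufb6 and Ndufb9, the fall was among the 5 largest. Ndufb6 read 4.58, 4.68 and 4.62 in saline 24 h and 4.39, 4.43 and 4.40 in LPS 24 h, without overlap (-0.22, SE 0.03, adjusted p = 0.000314). Ndufb9 read 7.12, 7.18 and 7.06 against 6.81, 6.93 and 6.98 (-0.21, SE 0.05, adjusted p = 0.00973).

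Complex II is succinate dehydrogenase, also an enzyme of the tricarboxylic acid cycle. Sdha, its flavoprotein, differed by -0.45 (SE 0.03, adjusted p = 9.93e-07) at 4 h, from 3.47, 3.47 and 3.48 to 3.04, 3.03 and 3.00. It stood at 3.01, 2.98 and 3.07 in saline 24 h, level with LPS 4 h (0.00). That holds for the brightest Sdha probe. Of the further Sdha probes printed below, the second differed there by -0.46 (called) and the dimmest by 0.07 (not called). The membrane anchor Sdhd fell by 0.93 at 4 h (SE 0.04, adjusted p = 1.33e-08), from 5.0, 5.07 and 5.06 to 4.08, 4.11 and 4.15, and its arrays did not overlap. The iron-sulphur subunit Sdhb differed by -0.38 (SE 0.05, adjusted p = 2.89e-05), and the second anchor Sdhc by -0.09 (SE 0.03, adjusted p = 0.0257). Over the 25 other settings that kept the saline 4 h control, Sdhb ranged from -0.55 to -0.04 and stayed called in 22. Sdhc turned to 0.14 with quantile normalization and to 0.11 in the deposited matrix. At 24 h only Sdhc was called, at -0.09 (SE 0.03, adjusted p = 0.0416), which 8 of 25 other settings left on the same side of the threshold.

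Complex III passes electrons from ubiquinol to cytochrome c. Uqcrfs1, its Rieske iron-sulphur protein, was at 5.70, 5.54 and 5.59 in saline 4 h and 4.57, 4.63 and 4.64 in LPS 4 h (-1.0, SE 0.06, adjusted p = 1.26e-07). It was also lower at 24 h, from 4.12, 4.26 and 4.17 to 3.80, 3.92 and 3.95 (-0.29, SE 0.06, adjusted p = 0.00229), the largest called fall of the 89 at that time. Its groups did not overlap at either time. LPS 4 h was 0.43 above saline 24 h for it. Uqcrc1, a core protein, differed by -0.65 (SE 0.06, adjusted p = 3.27e-06) at 4 h and by -0.02 (adjusted p = 0.815) at 24 h.

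Complex V makes ATP. The rotor ring is built of identical c subunits encoded by Atp5g1, Atp5g2 and Atp5g3, which make the same mature protein. Atp5g3 read 8.18, 8.13 and 8.10 in saline 4 h and 7.01, 7.01 and 7.09 in LPS 4 h (-1.10, SE 0.04, adjusted p = 6.68e-09, 2.15-fold). Atp5g2 differed by -1.03 (SE 0.07) and Atp5g1 by -0.90 (SE 0.04), both called, so that all 3 genes of the ring were lower. Against saline 24 h the 3 were 0.48, 0.44 and 0.50 higher. At 24 h only Atp5g3 was called, at -0.14 (SE 0.04, adjusted p = 0.0154).

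The catalytic head holds Atp5a1 and Atp5b. Atp5a1 read 7.36, 7.29 and 7.31 against 6.47 on each of the 3 LPS 4 h arrays (-0.84, SE 0.03, adjusted p = 4.88e-09), and fell by 0.12 at 24 h (SE 0.03, adjusted p = 0.0074). Atp5b, the catalytic subunit, spread more, at 7.53, 7.74 and 7.73 against 6.88, 7.14 and 7.01, and still did not overlap (-0.65, SE 0.11, adjusted p = 0.000278). At 24 h it was not called (-0.10, SE 0.11, adjusted p = 0.478). These values are from its brightest probe. Its other probes, from the dimmest up, were lower at 4 h by -0.53, -0.99 and -0.97. At 24 h they differed by 0.26 (called), -0.18 (not called) and 0.18 (called). When LPS 4 h was set against saline 24 h, the brightest probe gave 0.21 and the others 0.09, -0.62 and -0.53.

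Complex IV, cytochrome c oxidase, has 11 widely expressed subunits in the set and 6 tissue-restricted isoforms or relatives. Cox5a read 7.94, 7.92 and 7.90 in saline 4 h, 6.84, 6.88 and 6.87 in LPS 4 h, 6.32, 6.39 and 6.31 in saline 24 h and 6.33, 6.31 and 6.49 in LPS 24 h. The 4 h difference was -1.05 (SE 0.05, adjusted p = 1.89e-08) and that at 24 h was 0.04 (SE 0.05, adjusted p = 0.507). Cox4i1, the regulatory subunit, differed by -0.55 (SE 0.04, adjusted p = 1.53e-06) at 4 h, but by 0.12 with quantile normalization and by 0.04 in the deposited matrix. Ndufa4, once assigned to complex I, differed by -0.46 (SE 0.03), and by 0.08 and 0.00 with those scalings. Cox7c, a small subunit, is counted among the 83 lower genes, but its dim probe passed the filter through saline 4 h alone, where it read -3.65, -4.50 and -4.26, against -5.79, -6.22 and -5.07 in LPS 4 h. That probe was well above background on 3 saline 4 h arrays, 1 LPS 4 h array, 2 saline 24 h arrays and 1 LPS 24 h array, so its fitted value of -1.56 is given as a description, and normexp background correction gave -0.45 (adjusted p = 0.158). Of the 88 genes well above background on all 12 arrays, 82 were lower and 1 higher at 4 h.

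The second comparison asks what remained 24 h after LPS. Against saline 24 h, 18 of the 89 were lower, 6 were higher and 65 were neither, where 22.8% of all genes were lower and 23.3% higher. The share that was lower was thus close to that of all genes, and the median was -0.04 against 0.00. Of the 83 genes lower at 4 h, 62 were not called at 24 h, 16 were lower again and 5 were higher. The same split was not counted over all genes. Leaving out each array in turn gave 13 to 22 lower and 5 to 7 higher. Scaling to the median raised the count of lower genes to 47, where 35.3% of all genes were lower, and shifted the median of all genes to -0.10. Normexp background correction gave 3 lower, where 8.69% of all genes were lower.

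Of the 6 genes that rose at 24 h, 5 encode subunits of complex IV, and 4 of these are among the 6 tissue-restricted isoforms and relatives. The median of those 6 was 0.40, with 4 higher and 0 lower. The 11 widely expressed subunits had a median of -0.09, with 1 higher and 1 lower. A test of the difference between these lists was not run.

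Cox8b, the heart and muscle form of subunit 8 (probe at chr7:148084852-148084911, mm9, minus strand), read -0.51, -0.58 and -0.61 in saline 24 h and 0.21, 0.14 and 0.16 in LPS 24 h. The groups lay apart, and the difference was 0.73 (SE 0.04, adjusted p = 2.22e-07, 1.66-fold). Over the 25 other settings that kept the saline 24 h control it was 0.63 to 0.76, called in each. Its widely expressed counterpart Cox8a went the other way, from 7.11, 7.17 and 7.18 to 7.03, 6.94 and 7.02 (-0.16, SE 0.03, adjusted p = 0.00224).

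Cox6a2, the heart and muscle form of subunit 6a (chr7:135349160-135349219, minus strand), read 1.65, 1.59 and 1.66 in saline 24 h and 2.14, 2.10 and 2.09 in LPS 24 h (0.48, SE 0.03, adjusted p = 1.19e-06, 1.40-fold). Its counterpart Cox6a1 read 8.30, 8.23 and 8.28 against 8.01, 8.03 and 8.39, which overlap (-0.13, SE 0.09, adjusted p = 0.275).

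Cox7a1, the heart and muscle form of subunit 7a (chr7:30970337-30970948, plus strand), read 2.15, 2.21 and 2.12 in saline 24 h and 2.59, 2.49 and 2.40 in LPS 24 h (0.34, SE 0.05, adjusted p = 0.000527, 1.26-fold). Its counterpart Cox7a2 rose as well, from 4.41, 4.40 and 4.34 to 4.60, 4.54 and 4.55 (0.18, SE 0.03, adjusted p = 0.000799). Cox6b2, best known from testis (chr7:4703488-4703547, minus strand), read -0.86, -1.04 and -0.96 against -0.45, -0.52 and -0.51 (0.46, SE 0.12, adjusted p = 0.0131), with no overlap. Its counterpart Cox6b1 was not called at 4 h (0.25, SE 0.11, adjusted p = 0.0691) or at 24 h (0.07, SE 0.11, adjusted p = 0.678). The remaining relatives, Cox7a2l and Cox7b2, differed by -0.10 (adjusted p = 0.165) and -0.11 (adjusted p = 0.394) at 24 h. The last of the 6 risers was Atp5d, the delta subunit of ATP synthase, at 0.12 (SE 0.04, adjusted p = 0.0282).

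The same isoforms were lower in LPS than in saline at 4 h. Cox7a1 read 4.74, 4.65 and 4.77 in saline 4 h and 3.44, 3.44 and 3.41 in LPS 4 h (-1.29, SE 0.05, adjusted p = 1.12e-08, 2.44-fold). Cox8b read 0.32, 0.25 and 0.29 against -0.25, -0.26 and -0.20 (-0.52, SE 0.04, adjusted p = 4.86e-07). Cox6a2 read 3.30, 3.24 and 3.28 against 2.79, 2.82 and 2.80 (-0.47, SE 0.03, adjusted p = 2.79e-07). Cox6b2 did not differ beyond its spread at 4 h, at -1.09, -0.53 and -0.96 against -0.84, -0.74 and -0.96 (0.01, SE 0.12, adjusted p = 0.927).

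For 3 of these isoforms the saline groups differed more than LPS and saline did at either time. The log2 difference of saline 24 h from saline 4 h was -2.56 for Cox7a1, -1.64 for Cox6a2 and -0.85 for Cox8b. Set against saline 4 h, LPS 24 h was accordingly lower, by a difference of -2.23 for Cox7a1, -1.16 for Cox6a2 and -0.12 for Cox8b, whereas Cox6b2 was higher at 0.37. The rises at 24 h thus hold against the saline arrays of their own time.

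**Figure D4:**
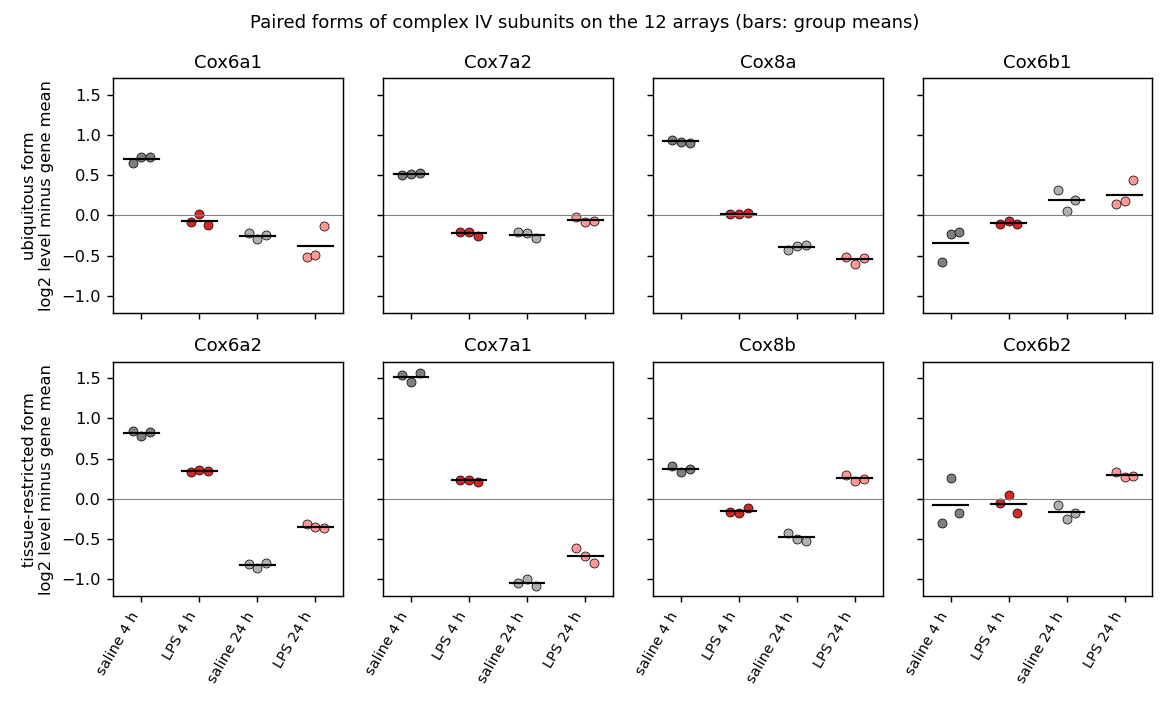
Log2 level minus the gene's mean over 12 arrays (y axis) in the 4 groups (x axis), for 4 widely expressed complex IV subunits (top row) and their tissue-restricted forms (bottom row). Points are arrays and bars group means; in the bottom row all 3 LPS 24 h points lie above all 3 saline 24 h points, and the Cox7a1 means of the saline groups differ by -2.56.

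Markers of other tissues moved at the same time. Of 6 measured markers of heart and skeletal muscle, 2 were higher and 2 lower at 24 h, with Tnni3 (0.82) and Mb (0.43) the higher pair, and their summed level was 18.5 to 19 times the 75th percentile in saline 24 h and 14.4 to 15.6 times in LPS 24 h. Ckm, the creatine kinase of muscle, did not pass the filter. Markers of the thalamus were higher at 24 h for 7 of 7, with sums of 6.38 to 6.89 in saline and 11.1 to 11.7 in LPS. Markers of microglia were higher for 7 of 8 and lower for 1, with sums of 97.5 to 102 and 131 to 134, and of endothelium for 6 of 7, with sums of 24.6 to 26 and 30.9 to 33.6. For choroid plexus and ependyma 4 of 6 were higher, with sums of 24.3 to 25.4 and 34.8 to 35.9. Astrocyte markers were higher for 5 of 8 and lower for 2. Of the neuronal markers 5 of 10 were lower and 0 higher. Markers of granule and pyramidal cells were lower for 4 of 8 and higher for 1, and the lower ones included Dsp at -0.79, C1ql2 at -0.67 and Neurod6 at -0.65. Markers of red blood cells were lower for 3 of 4 and higher for 0, with sums of 117 to 127 in saline and 63.3 to 64.6 in LPS. Of the pituitary markers 2 of 4 were lower and of the oligodendrocyte markers 1 of 6, with 0 higher in each. Of all genes 23.3% were higher and 22.8% lower at 24 h. The part of these cell types in the isoform values was not tested.

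At 4 h the marker lists held genes called in both directions, except those of the pituitary and red blood cells, which had 0 higher. Of 10 neuronal markers 3 were higher and 3 lower, with sums of 185 to 188 in saline and 180 to 182 in LPS. Those of granule and pyramidal cells were 5 of 8 higher and 1 lower, with sums of 152 to 155 in saline and 84.6 to 86.6 in LPS. Bok, the 1 lower gene (-1.22), made up most of that sum, and without it, a choice made after its values were seen, the sums of the other 7 were 25.7 to 26.1 and 30.6 to 31.5. Microglia had 6 of 8 lower and 1 higher, and endothelium 6 of 7 lower and 1 higher. Astrocytes had 4 of 8 lower and 3 higher, oligodendrocytes 4 of 6 lower and 2 higher, and the thalamus 4 of 7 lower and 3 higher. Choroid plexus and ependyma had 3 of 6 lower and 2 higher, and heart and skeletal muscle 2 of 6 lower and 3 higher. The pituitary had 4 of 4 lower and red blood cells 3 of 4. Of all genes 44.5% were lower and 29.3% higher. Pituitary sums were 5.73 to 5.92 in saline 4 h, 2.46 to 2.60 in LPS 4 h and 1.48 to 1.77 at 24 h. The part of these markers in the 4 h differences was not tested.

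Short stretches of the probes show what was measured for each pair. The first 30 of 60 bases, as the array files give them, are printed for 3 pairs of widely expressed and restricted forms.
Cox6a1: ggaccacgaaaaccctttggatgctaagct
Cox6a2: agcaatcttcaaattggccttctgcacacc
Cox7a2: aactgagctcttctttggggatcaatattt
Cox7a1: acaacgtcctgtacagactgaccatgacgc
Cox8a: tcatgttattcaattccagtcacctcttct
Cox8b: ctataaaaagagctccgcagcatgaagttg
At the best ungapped alignment the whole probes of a pair share 19, 18 and 19 of 60 bases, in this order. The 3 c-subunit genes of ATP synthase share 18 to 22 of 60 between their probes.

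The difference between the 2 responses was tested directly. For 79 of the 89 the LPS difference was higher at 24 h than at 4 h, and for 2 it was lower, where 42.5% and 26.4% of all genes were called. Cox7a1 had the largest, 1.62 (SE 0.07, adjusted p = 4.15e-08), followed by Cox8b at 1.25 (SE 0.05, adjusted p = 2.3e-08) and Cox5a at 1.10 (SE 0.06, adjusted p = 2.51e-07). The 2 lower genes were Atp5s at -0.27 (SE 0.04, adjusted p = 0.000179) and Ndufaf4 at -0.13 (SE 0.05, adjusted p = 0.0306). Both responses contain their own saline group, and in the deposited matrix 32 were higher and 8 lower, where 31.5% and 26.7% of all genes were called.

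Ndufaf4, a complex I assembly factor, was the 1 gene higher at 4 h, from 1.86, 1.80 and 1.83 to 1.98, 2.00 and 1.97 (0.15, SE 0.03, adjusted p = 0.00202). It was at 2.21, 2.27 and 2.16 in saline 24 h, above LPS 4 h, and scaling to the median gave -0.01 at 4 h. Ndufaf2, another assembly factor of complex I, was lower at both times, by -0.32 (SE 0.07, adjusted p = 0.00169) and -0.28 (SE 0.07, adjusted p = 0.00774). Ndufaf1, also an assembly factor of complex I, differed by -0.39 at 4 h (adjusted p = 5.79e-06) and by -0.05 at 24 h (adjusted p = 0.269). Atp5s, not counted among the subunits here, was level at 4 h (0.02, adjusted p = 0.647) and read 1.89, 1.88 and 1.92 in saline 24 h against 1.61, 1.69 and 1.62 in LPS 24 h (-0.26, SE 0.03, adjusted p = 6.35e-05). Cox4nb, named after its neighbour Cox4i1, was not called at 4 h (-0.05, adjusted p = 0.21) and was lower at 24 h (-0.16, SE 0.03, adjusted p = 0.00328). A dimmer Cox4nb probe differed by 0.77 at 4 h and by -0.30 at 24 h, and was called at each time.

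Of the 89 genes, 28 had more than 1 probe that passed. For 2 of them, 7.14%, probes were called in opposite directions at 4 h, against 17.1% of all 6775 genes with several probes. At 24 h this was so for 1, 3.57%, against 3.08% of all. The 3 genes are printed with the first 30 bases of each probe, the brightest first.
Ndufb2, brightest probe: actgggaatccctcctgatgacgaggactg
Ndufb2, other probe: gtcacaacactgttaaatgtttgaggatct
Sdha, brightest probe: tgcagcacaagtattgttttgttcattctc
Sdha, second probe: tgaatcttgacaagttgagatttgccgatg
Sdha, dimmest probe: taagtcagccacctataattgtagcagaat
Ndufab1, brightest probe: ttcctgatatagatgcagagaagttaatgt
Ndufab1, other probe: tgtaaatggctactttaaatcccagggtag
The brightest Ndufb2 probe (chr6:39548309-39549394, mm9, plus strand) differed by -0.87 at 4 h, and the other (chr6:39553019-39553078), further along the same strand, by 1.37. The brightest Sdha probe (chr13:74460146-74460205, minus strand) differed by -0.45, the second (chr13:74465756-74465815) by -0.47 and the dimmest (chr13:74486662-74486720) by 0.56, from mean levels of 3.47, 2.45 and -2.90 in saline 4 h. At 24 h the Ndufab1 probes differed by -0.18 and 0.26. Ndufab1 is the acyl carrier protein of mitochondria and a subunit of complex I, and with all its probes averaged it was at 0.04 (adjusted p = 0.412). Which transcripts the dimmer probes detect was not tested.

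**Figure D5:**
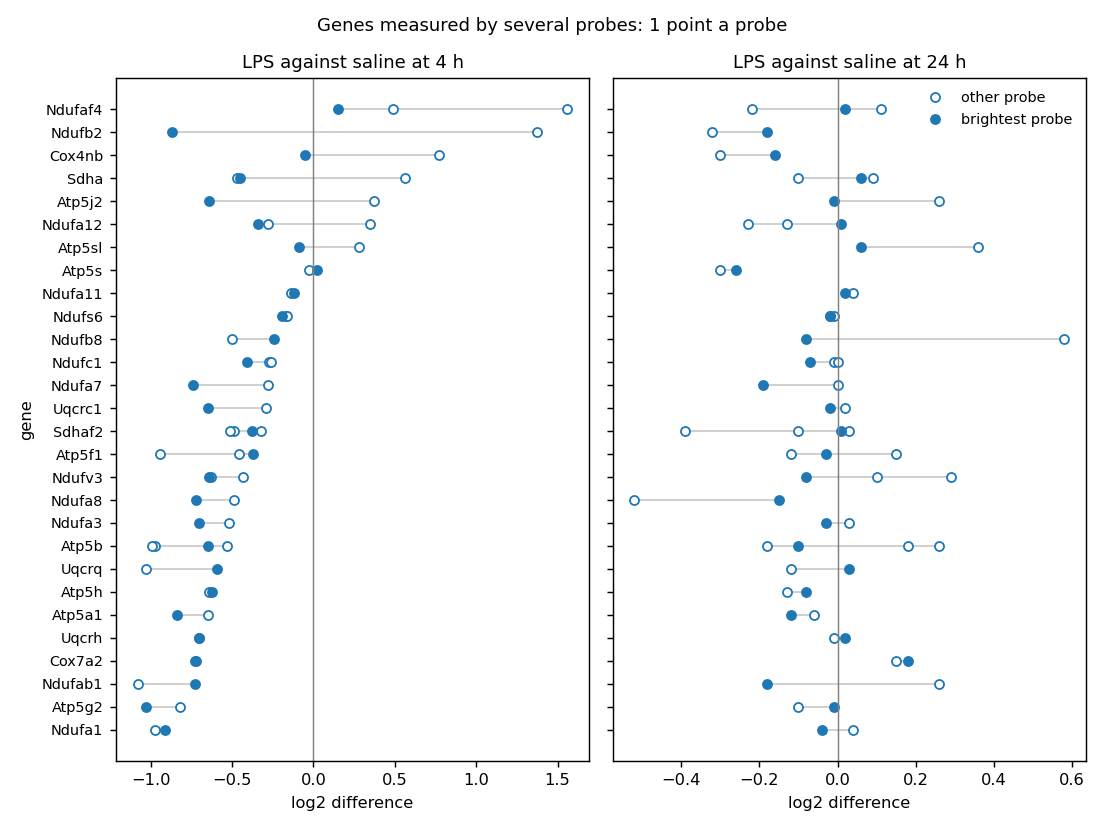
Log2 difference of LPS against saline (x axis) at 4 h and at 24 h for every passing probe of the 28 genes with several probes (y axis), with filled circles for the brightest probe and open circles for the others. The probes of Ndufb2 lie on either side of 0 at 4 h, at -0.87 and 1.37, as do those of Sdha.

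Genes that work with the chain were read from lists that were chosen with earlier results of these data known. Of 11 mobile electron carriers and ubiquinone synthesis genes, 9 were lower and 0 higher at 4 h (median -0.63), among them Coq7, a hydroxylase of ubiquinone synthesis, at -1.22 (SE 0.04, adjusted p = 3.65e-09) and Coq6, another, at -0.93 (SE 0.05, adjusted p = 6.12e-08). Of 20 assembly factors without these prefixes 16 were lower and 1 higher (median -0.48), with Atpaf1 at -0.93 and Atpaf2 at -0.66, chaperones of the ATP synthase head. Of 17 genes of the tricarboxylic acid cycle and its entry 12 were lower and 1 higher (median -0.33), with Idh3b at -1.15 and Mdh2 at -0.74. Of all genes 44.5% were lower and 29.3% higher in that comparison. Over the 25 other settings that kept the saline 4 h control, Mdh2 ranged from -0.91 to 0.00 and stayed called in 23. Against saline 24 h the same 3 lists had 5 higher and 2 lower, 10 and 5, and 8 and 4, where 41.5% of all genes were higher and 31.7% lower.

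At 24 h the carriers and ubiquinone genes had 2 higher and 1 lower, and Coq7 was not called (0.11, adjusted p = 0.0576). Coq5, a methyltransferase of ubiquinone synthesis, was at 0.14 (SE 0.04, adjusted p = 0.0268), after -0.68 at 4 h. Etfdh, which passes electrons from fatty acid oxidation to ubiquinone, was at -0.11 (SE 0.04, adjusted p = 0.0303), after -0.61. Of 25 other settings, 15 left Coq5 and 12 left Etfdh on the same side of the threshold at 24 h. The assembly factors had 6 lower and 0 higher, where 22.8% and 23.3% of all genes were called. Among the 6 was Cox18, an insertase for complex IV, which read 1.77, 1.72 and 1.78 in saline 24 h and 1.39, 1.43 and 1.44 in LPS 24 h (-0.34, SE 0.04, adjusted p = 9.12e-05). The tricarboxylic acid cycle had 5 lower and 0 higher, with Dlat, a component of pyruvate dehydrogenase, at -0.26 and Idh3a, a subunit of isocitrate dehydrogenase, at -0.15.

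The regulators that set mitochondrial gene expression did not move in 1 direction at 4 h, with 7 of 17 higher and 6 lower. Of all genes 29.3% were higher and 44.5% lower. Tfam, which packages mitochondrial DNA and helps to start its transcription, differed by -0.51 (SE 0.04, adjusted p = 5.15e-07), and by -0.13 against saline 24 h. Nrf1, the factor whose core motif was searched for in the promoters, differed by 0.19 (SE 0.05, adjusted p = 0.00412), by -0.03 with the mean of all its probes, and by -0.28 against saline 24 h. Ppargc1a, a coactivator of mitochondrial biogenesis, differed by -0.07 (SE 0.03, adjusted p = 0.0349), where quantile normalization and the deposited matrix gave 0.02 each and the mean of all its probes gave 0.52. Against saline 24 h its difference was -0.80. Hif1a, a subunit of the hypoxia-inducible factor, rose by 1.62 (SE 0.06, adjusted p = 5.92e-09) and was also higher against saline 24 h, by 0.28. The deacetylase Sirt1 rose by 1.54 (SE 0.06, adjusted p = 1.04e-08), and was at -0.20 against saline 24 h. At 24 h 3 of the 17 were higher and 6 lower, where 23.3% and 22.8% of all genes were called. Among them were Nfe2l2, a regulator of antioxidant genes, at 0.37 (SE 0.05, adjusted p = 0.000153) and Yy1 at -0.22 (SE 0.05, adjusted p = 0.00428).

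Glycolysis, which supplies pyruvate to the mitochondrion, had 7 of 21 higher and 11 lower at 4 h, where 29.3% and 44.5% of all genes were called. At 24 h it had 4 higher and 4 lower, where 23.3% and 22.8% of all genes were called. Ldha, a lactate dehydrogenase, differed by -0.91 (SE 0.04, adjusted p = 2.8e-08) at 4 h. Gapdh differed by 1.26 (SE 0.03, adjusted p = 1.05e-09), and by -0.63 against saline 24 h. Pfkfb3, which makes an activator of phosphofructokinase, read 1.94, 2.14 and 2.08 in saline 24 h and 2.60, 2.54 and 2.51 in LPS 24 h (0.50, SE 0.05, adjusted p = 5.75e-05), and Hk2, a hexokinase, rose by 0.36 (SE 0.04, adjusted p = 5.07e-05).

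Among 15 uncouplers, carriers and dynamics genes 4 were higher and 7 lower at 4 h, where 29.3% and 44.5% of all genes were called. At 24 h 2 of the 15 were higher and 6 lower, where 23.3% and 22.8% of all genes were called. Ucp2, an uncoupling protein known from immune cells, was higher with LPS at 4 h by 1.86 (SE 0.04, adjusted p = 4.97e-10), at 24 h by 0.74 (SE 0.04, adjusted p = 8.58e-07), and by 1.14 when LPS 4 h was set against saline 24 h. Slc25a4, an ADP/ATP carrier, differed by -0.69 (SE 0.03) at 4 h and by 0.00 in the deposited matrix, and by 0.15 (SE 0.03, adjusted p = 0.00285) at 24 h. Park2, the ubiquitin ligase parkin, was lower at both times, by -0.33 (SE 0.04) and -0.24 (SE 0.04), though its probes averaged gave 0.47 at 4 h.

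The subunits encoded in mitochondrial DNA were covered by 4 of 13 listed names. At 4 h ATP6 was at 1.83 (SE 0.05, adjusted p = 5.94e-10), COX2 at -0.93 (SE 0.13, adjusted p = 9.64e-05), ND4 at -0.02 (adjusted p = 0.899) and CYTB at 0.01 (adjusted p = 0.905), so that 1 was higher, 1 lower and 2 were not called. ATP6 turned to -1.35 against saline 24 h. None of the 4 was called at 24 h.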

How the data were processed

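Hippocampal RNA of 12 mice was read on one-colour Agilent arrays (Cy3). The deposited files give processed intensity per spot; they came from Feature Extraction 10.7.3.1 (Agilent) per the file headers, whereas the submitters' processing notes name version 9.1. The deposited log2 matrix was recomputed from these files as normexp (offset 50) and quantile normalization, and served as an alternative.

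Log2 processed intensity minus each array's 75th percentile was used, without outlier spots, and repeated spots were averaged. Probes called well above background throughout at least 1 group were kept (27683 of 41174), and the brightest probe stood for a gene name. Group means were fitted with limma 3.58.1 in R 4.3.3 over all 12 arrays (8 residual degrees of freedom) with empirical Bayes moderation. Probe positions are on mm9. The number of arrays limits the precision. The fit was tested on simulated data. Alternatives covered background correction, scaling, filter, probe and name rules, arrays in the fit, blocks, thresholds and controls.

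Members and lists were chosen with earlier results of these data known. Named genes are the 5 largest rises and falls per LPS comparison with non-overlapping arrays, 3 of each sign for the difference between times, 26 names always given where measured, genes with opposing probes, and up to 2 per pathway list; 1 gene that the rule names is not reported here. Cox6b1, Cox7a2l, Cox7b2, Ndufa10, Cox4nb and the markers were singled out after their values were seen.

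The NRF1 motif was shortened by its last base after the full palindrome had been searched, which raised the share of matching windows both among these genes and among all genes.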

Additional observations from a re-analysis of the deposited data

Results flagged for a closer look

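A test of the difference itself, the LPS response at 24 h minus that at 4 h in the limma fit, passed for 52 of the named genes. Each response has its own saline group, and the saline groups differ. Among the respiratory chain genes it was positive for Cox7a1 1.62, Cox8b 1.25, Cox5a 1.10, Atp5g2 1.01, Ndufa2 1.01, Atp5g3 0.96, Cox6a2 0.95, Sdhd 0.92, Cox7a2 0.92, Atp5g1 0.87, Cox8a 0.73, Atp5a1 0.72, Uqcrfs1 0.70, Ndufb2 0.70, Cox6a1 0.64, Uqcrc1 0.63, Ndufb6 0.60, Ndufs1 0.59, Ndufb9 0.56, Atp5b 0.55, Ndufab1 0.55, Sdha 0.50, Cox4i1 0.46, Cox6b2 0.45, Sdhb 0.38, Ndufa4 0.37, Ndufaf1 0.33 and Ndufv1 0.26, and negative for Ndufaf4 -0.13 and Atp5s -0.27. Among the genes of the other lists it was positive for Coq7 1.33, Idh3b 1.11, Coq6 1.07, COX2 0.99, Ldha 0.97, Slc25a4 0.84, Coq5 0.82, Atpaf1 0.75, Atpaf2 0.66, Mdh2 0.65, Etfdh 0.50, Cox18 0.46, Tfam 0.46, Idh3a 0.39 and Nfe2l2 0.36, and negative for Hk2 -0.22, Dlat -0.27, Ucp2 -1.11, Gapdh -1.41, Sirt1 -1.45, Hif1a -1.64 and ATP6 -1.86. Groups of 3 arrays are too small for a test of single outlying arrays.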

How the results depend on the processing

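Outside the settings that leave out an array, 1381 of 1678 values of the named genes stayed on the same side of the threshold. Those that were called also kept their direction. Another 168 lost the threshold, 42 passed it and 87 turned sign. Of 1440 values without 1 array, the counts were 1386, 48, 6 and 0 in that order. Here and in the lists below, a turned sign was counted only for values called in the main fit or in the other setting. Values called in neither counted as on the same side, whatever their sign. The cause of a change was not tested unless the setting itself gives it. The control had the largest effect: with the saline arrays of the other time, 56 genes were higher and 11 lower at 4 h, and 81 were lower at 24 h. Quantile normalization gave 16 higher and 49 lower at 4 h and 10 higher at 24 h, and the deposited matrix 9 higher and 46 lower at 4 h, 9 lower at 24 h and 40 called for the difference between times. Normexp gave 0 higher at 4 h and 3 lower at 24 h (17.6% and 8.69% of all genes). Scaling to the median gave 0 and 47 (21.5% and 35.3% of all genes). At 4 h, genes well above background on all 12 arrays had 2 higher and the mean of all probes 3. At 24 h, 9 were lower with only the 6 arrays of that time and 11 at an adjusted p under 0.01. A 1.5-fold minimum left 0 higher and 42 lower at 4 h, 1 higher and 0 lower at 24 h, and 34 for the difference. Leaving out each array in turn gave 1 to 2 higher and 80 to 83 lower at 4 h, 5 to 7 higher and 13 to 22 lower at 24 h, 74 to 80 for the difference and 84 to 85 between the saline groups.

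At neither time did every pair of same-numbered samples correlate above 0.1, so the replicate number was not used as a block, although at 24 h same-numbered samples shared a slide and all other 24 h pairs correlated below 0. Correlations of same-numbered samples were 0.1, 0.19 and -0.16 at 4 h and 0.07, 0.1 and 0.1 at 24 h. With the replicate number as a block, 1 was higher and 80 lower at 4 h, 5 higher and 13 lower at 24 h, and 78 were called for the difference. With the slide as a block these were 1, 83, 5, 16 and 80. Neither block could be fitted between the saline groups, and a fit of 6 arrays does not apply to the difference.

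Log2 differences that turned sign with the other time's saline arrays were, at 4 h, Atp5a1 0.17, Atp5b 0.21, Atp5g1 0.50, Atp5g2 0.44, Atp5g3 0.48, ATP6 -1.35, Atpaf1 0.29, Atpaf2 0.12, Coq7 0.29, Cox18 0.59, COX2 0.22, Cox4i1 0.21, Cox5a 0.53, Cox6a1 0.19, Cox6a2 1.17, Cox7a1 1.27, Cox7a2 0.02, Cox7c 0.40, Cox8a 0.41, Cox8b 0.33, Etfdh 0.25, Gapdh -0.63, Idh3a 0.16, Ldha 0.32, Mdh2 0.24, Ndufa2 0.47, Ndufa4 0.25, Ndufaf1 0.25, Ndufaf2 0.12, Ndufaf4 -0.23, Ndufb2 0.44, Ndufb6 0.15, Ndufb9 0.43, Ndufs1 0.13, Ndufv1 0.02, Nrf1 -0.28, Park2 0.19, Sdha 0.00, Sdhd 0.33, Sirt1 -0.20, Slc25a4 0.24, Uqcrc1 0.53 and Uqcrfs1 0.43, and at 24 h, ATP6 3.15, Coq5 -0.41, Coq6 -0.76, Coq7 -1.40, COX2 -1.08, Cox5a -1.54, Cox6a2 -1.16, Cox7a1 -2.23, Cox7a2 -0.57, Cox8b -0.12, Gapdh 1.75, Hif1a 1.33, Hk2 -0.49, Ldha -1.17, Ndufs1 -0.64, Nfe2l2 -0.49, Pfkfb3 -0.78, Ppargc1a 0.65, Sdha -0.39, Sdhc 0.16, Slc25a4 -0.78 and Yy1 0.03. With median scaling at 4 h they were Atp5s -0.15, Dlat -0.15, Ndufaf4 -0.01 and Nfe2l2 -0.15. With quantile normalization at 4 h they were Cox4i1 0.12, Ndufa4 0.08, Ndufv1 0.11, Ppargc1a 0.02 and Sdhc 0.14. In the deposited matrix at 4 h they were Cox4i1 0.04, Ndufa4 0.00, Ndufv1 0.04, Ppargc1a 0.02, Sdhc 0.11 and Slc25a4 0.00. With the mean of all probes they were Dlat -0.18, Ndufb2 0.25, Nrf1 -0.03, Park2 0.47, Ppargc1a 0.52 and Yy1 0.05 at 4 h and Ndufab1 0.04 at 24 h.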
